A study of Mus musculus with 24 samples.

Results

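The endothelin and Hand2 mandibular programme was followed through 6 genes, Edn1, Ednra, Mef2c, Hand2, Hand1 and Gsc, in the jaws of mouse embryos. A gene was taken from the probe sets that the platform annotation maps to its symbol alone, and the probe set with the highest mean over 24 arrays stood for it. Of the 6 genes, 5 had such a probe set, among 18194 genes in all, and all 5 were among the 13850 genes bright enough to test. Ednra, the endothelin A receptor gene, was not analysed here.

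Edn1 encodes endothelin-1, a secreted peptide made by the arch epithelium and its mesodermal core, which acts on endothelin A receptors of the neural crest cells that build the lower jaw. Signalling through Gq proteins and MEF2C, a MADS-box transcription factor, turns on the DLX5 and DLX6 homeodomain factors and then HAND2. HAND2 is a basic helix-loop-helix (bHLH) factor of the distal lower jaw, where HAND1 overlaps it, while Gsc, a homeobox gene, is used at middle and proximal levels of the arch.

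Expression was measured on Affymetrix arrays in jaws of C57B6 embryos at embryonic day 13.5. Embryos came from crosses of Wnt1cre;Tgfbr2fl/+ with Tgfbr2fl/fl mice, so every littermate inherits at least 1 floxed Tgfbr2 allele. Mutants (Tgfbr2 knockout in the labels) lack the type II TGF-beta receptor in cells where the Wnt1 promoter drives Cre, mainly the neural crest. Epithelium, skeletal muscle and endothelium therefore keep the gene. They were picked by cleft palate and calvarial defect, and the controls were littermates whose Cre status is not given. Each mandible and maxilla was split into a distal and a proximal end, which gives 8 groups of 3 arrays (control or mutant, mandible or maxilla, distal or proximal). The labels do not say whether replicates are separate animals or whether tissue was pooled, so the p-values cover only the spread between these arrays, part of which may be technical. A set, below, means the 4 arrays of 1 genotype with the same replicate number.

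The targeted gene and the markers were looked at first. Tgfbr2 lay between 11.94 and 12.33 log2 units in the 12 control arrays and between 12.20 and 12.68 in the 12 mutant arrays on its brightest probe set. The sources used here do not place its 3 probe sets on the gene, and these levels are therefore no check of the deletion or of the labels. The mean of 6 jaw mesenchyme genes was 12.40 to 12.74 on all 24 arrays. The maxillary genes Pou3f3 and Nr2f1 averaged 12.06 to 12.24 in control maxilla against 10.22 to 11.64 in control mandible, and 12.01 to 12.44 against 10.76 to 11.79 in mutants. Pou3f3 alone had means of 11.78 and 11.21 in control distal and proximal mandible and 12.34 and 11.79 in maxilla. The mandibular genes Dlx5, Dlx6 and Pitx1 averaged 10.43 to 10.50 in control distal mandible and 9.94 to 10.16 in distal maxilla. Proximally the control jaws overlapped (11.14 to 11.51 and 10.68 to 11.42). Dlx5 and Dlx6 were no higher in control mandible. In mutants the list was at 10.23 to 10.57 against 9.16 to 10.22 distally and 11.25 to 11.53 against 10.19 to 10.75 proximally. Mutant distal maxilla replicate 1 stood apart, with a cartilage list at 11.99 (control distal maxilla 7.60 to 8.14, the other mutant distal maxilla arrays 7.99 and 7.68) and a neuron list at 9.92 (8.23 and 7.95 in the other two). In mutant sets 1 and 3 the Gapdh control probe sets, a sign of RNA quality, read higher at the 3' than at the 5' end by 0.25 to 0.77 log2, against -0.07 to 0.16 in control arrays and 0.04 to 0.10 in mutant set 2. Mutant sets 2 and 3 read high for both Xist, which marks an inactive X, and Y-linked genes, which no control set did.

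Among the 5 genes, Hand2 had the largest differences between the jaws and between the ends of the mandible. Its level was highest in the distal mandible, lower in the proximal mandible and lowest in the maxilla, in this order in both genotypes. Hand1 was higher in the distal mandible than in the distal maxilla or the proximal mandible, by a smaller amount. Gsc was called as higher in the mandible than in the maxilla at the distal end in controls and at the proximal end in mutants. It was also higher, but not called, at the proximal end in controls (1.10 log2) and at the distal end in mutants (0.69). The jaw difference was not called as differing between genotypes at either end. Its highest level was in control proximal mandible. Edn1 and Mef2c were called between no jaws or ends (Edn1 was between control mandibular ends with the set as a block, adjusted p = 0.0254 as a random one and 0.0365 as a fixed one), and none of the 5 passed the test between mutant and control in any region or on average. All of this is whole-tissue RNA, in which fewer cells of a type and less RNA per cell cannot be told apart.

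**Figure D1:**
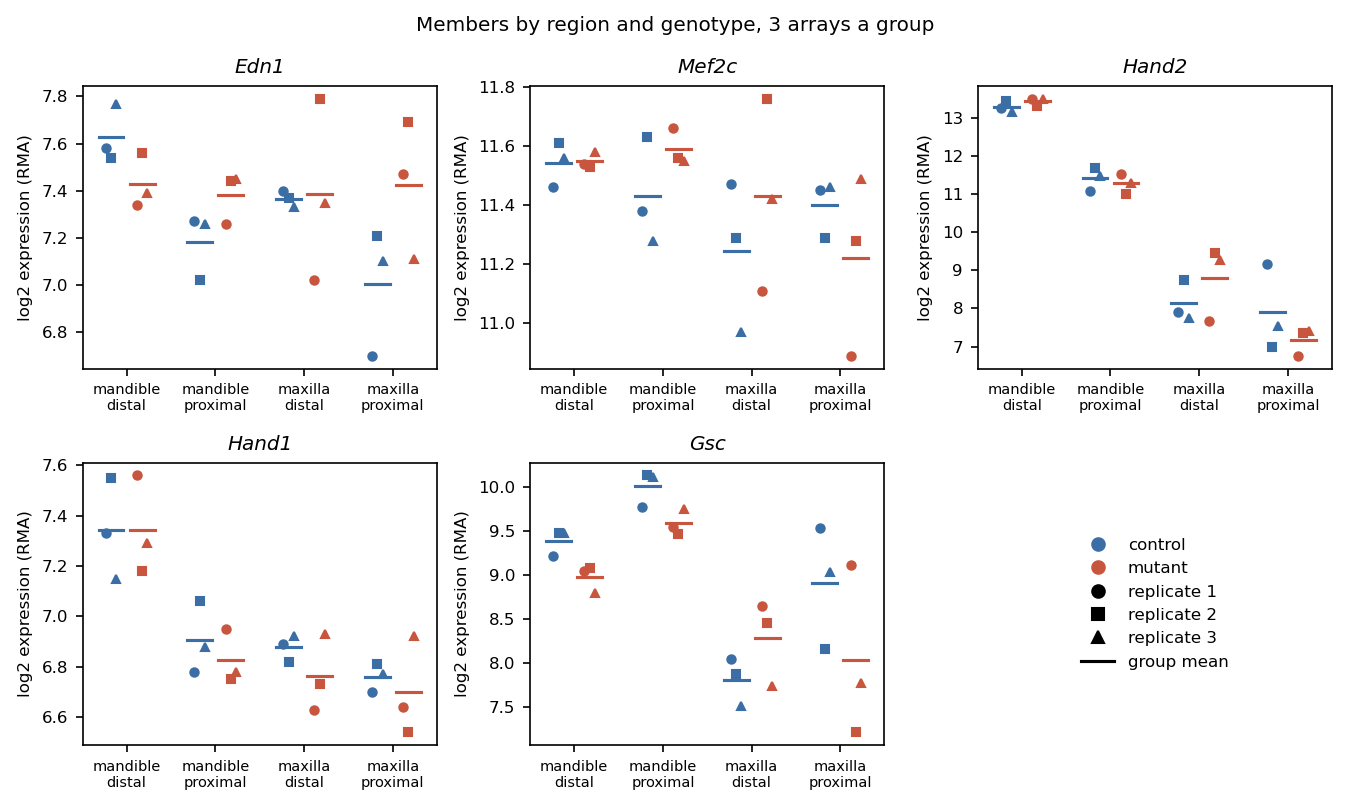
Level of each gene (vertical axis, log2 expression) in the 8 groups (horizontal axis: jaw and end; blue control, red mutant), 1 point an array, with shape for the replicate number and a bar for the group mean. Hand2 runs from 13.17 to 13.51 in the distal mandible and from 6.76 to 9.47 in the maxilla, and the vertical axes differ between genes.

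The upstream sequences of Hand2 and Gsc are shown because only these members had group means that spanned more than 1 log2 unit. Each is the 250 bases before the RefSeq transcript start (GRCm38.p6), read 5′ to 3′ on the gene's strand. Hand2 lies at chr8:57320733-57320982 on the plus strand and Gsc at chr12:104473237-104473486 on the minus strand. Capitals mark matches to these motifs, searched on both strands: the E-box CANNTG, the core recognised by bHLH dimers, and the homeodomain cores TAATTA and TAATTG.
Hand2: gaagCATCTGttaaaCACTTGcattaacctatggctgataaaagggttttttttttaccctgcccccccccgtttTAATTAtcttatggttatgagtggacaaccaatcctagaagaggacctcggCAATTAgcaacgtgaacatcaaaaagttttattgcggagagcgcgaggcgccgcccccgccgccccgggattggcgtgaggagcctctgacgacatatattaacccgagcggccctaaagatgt
Gsc: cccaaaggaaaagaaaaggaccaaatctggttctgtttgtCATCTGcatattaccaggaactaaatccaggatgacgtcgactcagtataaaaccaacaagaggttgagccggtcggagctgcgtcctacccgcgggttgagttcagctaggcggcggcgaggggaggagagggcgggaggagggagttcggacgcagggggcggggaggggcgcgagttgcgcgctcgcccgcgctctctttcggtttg

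The Hand2 stretch held 2 E-boxes, CATCTG and CACTTG, starting 246 and 235 bases before the start. It also held TAATTA at 175 bases before the start and CAATTA, the reverse complement of TAATTG, at 124. In Gsc the same search found 1 E-box, CATCTG, at 210 bases before the start. E-boxes are common: 66.2% of the 32851 upstream stretches of this length in the table held CANNTG, whereas 4.84% held TAATTA and 7.17% held TAATTG. A loose pattern for the MEF2 core, with fixed end bases and any bases allowed in its middle, was also searched. It was in 3.2% of these stretches and had no match in Hand2 or Gsc. Because its middle was open and its ends were fixed, neither value is read as being about MEF2 sites. For Edn1 the search found TAATTG at 227 bases before the start. Mef2c, which has 3 starts in the table, held CAAGTG at 234, CAATTA at 195, TAATTG at 191 and CATATG at 100 before the first, TAATTA at 102 before the second and CAGATG at 245 before the third. The Ednra stretch held CAAGTG at 214, and Hand1 was not matched. The Hand2 stretch also overlaps an antisense neighbour, Hand2os1, which shares 127 of its bases and does not reach the Hand2 transcript. These matches describe letters only, and no binding was measured.

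Edn1, the ligand gene, read between 6.70 and 7.79 over the whole series. In control distal mandible its arrays read 7.58, 7.54 and 7.77 (replicates 1, 2 and 3, as throughout), and in control proximal mandible 7.27, 7.02 and 7.26. These groups did not overlap, the distal end being higher by 0.44 ± 0.167 log2 (standard error, SE, n = 3 a group; adjusted p = 0.0916 in limma with Benjamini-Hochberg adjustment over all genes tested, as for all adjusted p-values below). The value stayed under the call at 0.05 there, and was called with the set as a block (adjusted p = 0.0254 as a random block and 0.0365 as a fixed block) or without mutant replicate 2 (0.0301).

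In the control maxilla Edn1 read 7.40, 7.37 and 7.33 distally and 6.70, 7.21 and 7.10 proximally. Again every distal array lay above every proximal one, by 0.36 ± 0.167 (adjusted p = 0.271). The mutant arrays showed no such split. They read 7.34, 7.56 and 7.39 in distal mandible and 7.26, 7.44 and 7.45 in proximal mandible, with overlap, a difference of 0.05 ± 0.167 (adjusted p = 0.897). In the mutant maxilla the distal arrays read 7.02, 7.79 and 7.35 and the proximal arrays 7.47, 7.69 and 7.11, a wider spread than in the mandible. The tests of the difference between genotypes in this distal-to-proximal step gave -0.40 ± 0.236 in both jaws (adjusted p = 1 for each).

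Epithelium is a known source of Edn1, and its markers moved with the same ends. The mean of 8 epithelial genes was 11.04 to 11.22 in control distal mandible against 10.20 to 10.36 in proximal mandible, and 10.76 to 10.98 against 9.55 to 9.80 in the control maxilla. In mutants it was also higher distally in the mandible (11.08 to 11.30 against 10.01 to 10.28), and in the maxilla, where the ends overlapped over sets, the distal array was the higher in each set (11.55 against 10.77, 10.88 against 10.06 and 10.71 against 10.07). Their part in the Edn1 values was not tested. The mean of 8 endothelial genes, of another Edn1 source, lay between 9.40 and 9.90 on every array. In controls it was 9.50 to 9.53 in distal mandible and 9.63 to 9.90 in the other regions. In mutants it was 9.40 to 9.58 in distal mandible and 9.41 to 9.89 in the others. The part of endothelium was not tested either.

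Mef2c was bright in every group and was called in no comparison on the probe set that stands for it. Its 8 group means lay between 11.22 and 11.59. Control distal mandible read 11.46, 11.61 and 11.56, and control distal maxilla 11.47, 11.29 and 10.97, a difference of 0.30 ± 0.154 (adjusted p = 0.329). The nearest to a jaw difference in mutants was at the proximal end, where the mandible arrays (11.66, 11.56 and 11.55) lay above all maxilla arrays (10.89, 11.28 and 11.49) by 0.37 ± 0.154 (adjusted p = 0.21).

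The 4 other Mef2c probe sets, all above the 40th percentile on every array, added 1 call. Probe set 1451507_at was higher in mutants by 0.29 ± 0.107 on average over the regions (adjusted p = 0.044 over 28952 probe sets), while the brightest gave 0.04 ± 0.0769. Its means by set were 10.31, 10.24 and 10.16 in controls and 10.22, 10.79 and 10.58 in mutants, with overlap, and with 1 value a set the call was lost (adjusted p = 0.309). In the mutant maxilla, probe set 1421027_a_at read 10.06, 11.85 and 10.43 distally and 10.17, 11.38 and 10.31 proximally. Replicate 2 was thus the highest at both ends, and it was so on 1421028_a_at as well (11.01 and 10.49, the others between 9.61 and 9.97). Skeletal muscle also transcribes Mef2c, and the mean of 8 muscle genes ran from 8.37 to 9.53 in control distal mandible and from 11.02 to 11.72 in the other control regions. The part of muscle in these levels was not tested.

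Hand2, the bHLH gene of the distal lower jaw, was at 13.28, 13.45 and 13.17 in control distal mandible. It was at 11.09, 11.68 and 11.48 in control proximal mandible. In the control maxilla the distal arrays read 7.91, 8.74 and 7.75 and the proximal arrays 9.16, 6.99 and 7.54. Every mandible array thus lay above every maxilla array, and within the mandible the ends did not overlap, while the ends of the maxilla did.

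Between the jaws, Hand2 was 35.8-fold higher in the control mandible at the distal end (log2 5.16 ± 0.454, adjusted p = 1.13e-06) and 11.5-fold higher at the proximal end (3.52 ± 0.454, adjusted p = 0.000556). Of the 5 genes, 3 were called at the distal end (Hand2, Hand1 and Gsc, all higher in the mandible), where 9.21% of all genes tested were called. At the proximal end Hand2 alone was called, and 2.61% of all genes were. Both Hand2 calls held under every alternative run for that probe set. Averaging its 3 probe sets moved the differences to 3.38 and 1.79. That average takes in 2 probe sets which only the 6 distal mandible arrays lifted above the 40th percentile, and its values here and below are given for completeness and support nothing.

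The comparison of the mandibular ends uses the same control distal mandible arrays as that of the jaws. Within the control mandible, Hand2 was 3.68-fold higher distally (log2 1.88 ± 0.454, adjusted p = 0.00826). The called genes there were Hand2 and Hand1, 2 of 5, against 13.3% of all genes tested. Without control replicate 3 the Hand2 difference was 1.98 and missed the call (adjusted p = 0.0706). In the control maxilla the end difference was 0.24 ± 0.454 (adjusted p = 0.936), with a 95% interval from -0.71 to 1.19, and it turned to -0.52 without control replicate 2. None of the 5 genes was called between the maxillary ends by limma (2 at an unadjusted p under 0.05), where 6.06% of all genes were called. Of all 13850 genes tested, 2283 had an unadjusted p under 0.05 there.

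The distal step of Hand2 was thus larger in the control mandible than in the maxilla by 1.64 ± 0.642, a difference that did not pass (adjusted p = 0.231). Without control replicate 1 it was 0.74 (adjusted p = 1). On the main probe sets 0 of 5 genes passed this test in limma (1 at an unadjusted p under 0.05), against 2.73% of all genes tested. An unadjusted p under 0.05 was found for 1814 of all 13850 genes.

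The mutant jaws held the same order. Hand2 read 13.51, 13.33 and 13.50 in mutant distal mandible, 11.54, 11.02 and 11.31 in proximal mandible, 7.67, 9.47 and 9.28 in distal maxilla and 6.76, 7.36 and 7.42 in proximal maxilla. None of these 4 groups overlapped another. Mandible exceeded maxilla by 4.64 ± 0.454 distally (24.9-fold, adjusted p = 6.38e-06) and by 4.11 ± 0.454 proximally (17.3-fold, adjusted p = 1.98e-05). With probe sets averaged the proximal value was 1.82. At the distal end 2 of 5 genes were called, Hand2 and Hand1, against 4.92% of all genes tested, and at the proximal end 2 of 5, Hand2 and Gsc, against 5.69%.

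In the mutant mandible the distal end was higher by 2.16 ± 0.454 (4.46-fold, adjusted p = 0.00231). Hand2 and Hand1 were the 2 of 5 genes called there, against 15.9% of all genes. In the mutant maxilla Hand2 was also higher distally, by 1.63 ± 0.454 (3.1-fold, adjusted p = 0.042), the only one of the 5 genes called, against 5.15%. The call was lost without control replicate 3 (adjusted p = 0.0911), without mutant replicate 2 (1.39, adjusted p = 0.242), without mutant replicate 3 (1.52, adjusted p = 0.237) and with the probe sets averaged (0.65, adjusted p = 0.0528). Without mutant replicate 1, whose distal maxilla array stood apart, the difference was 1.99 (adjusted p = 0.0269). The end step differed between the mutant jaws by 0.52 ± 0.642 (adjusted p = 0.985). In limma 0 of 5 genes passed that test on the main probe sets (1 at an unadjusted p under 0.05), against 1.32% of all genes. An unadjusted p under 0.05 was found for 1338 of all 13850 genes tested.

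**Figure D2:**
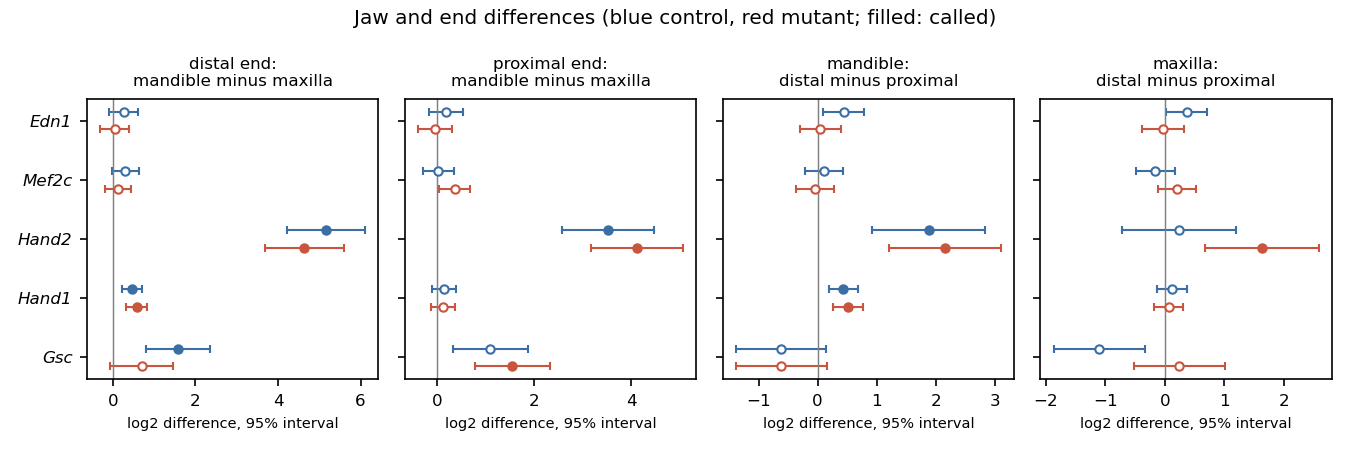
Log2 differences between jaws and between ends (horizontal axis, bars are 95% intervals) for each gene, blue in controls and red in mutants, filled where called. Hand2 lies farthest from 0 in both jaw comparisons (5.16 and 3.52 in controls), and the intervals of the genotypes overlap for every gene shown.

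The other Hand2 probe sets, 1443854_at and 1422221_at, were dimmer. Each was above the 40th percentile on the 6 distal mandible arrays and on no other array, so differences between the remaining regions are not read from them. Distal mandible exceeded distal maxilla in controls by 2.57 on 1443854_at and by 2.40 on 1422221_at. With the maxilla under that percentile these values are read neither as sizes nor as support.

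**Figure D3:**
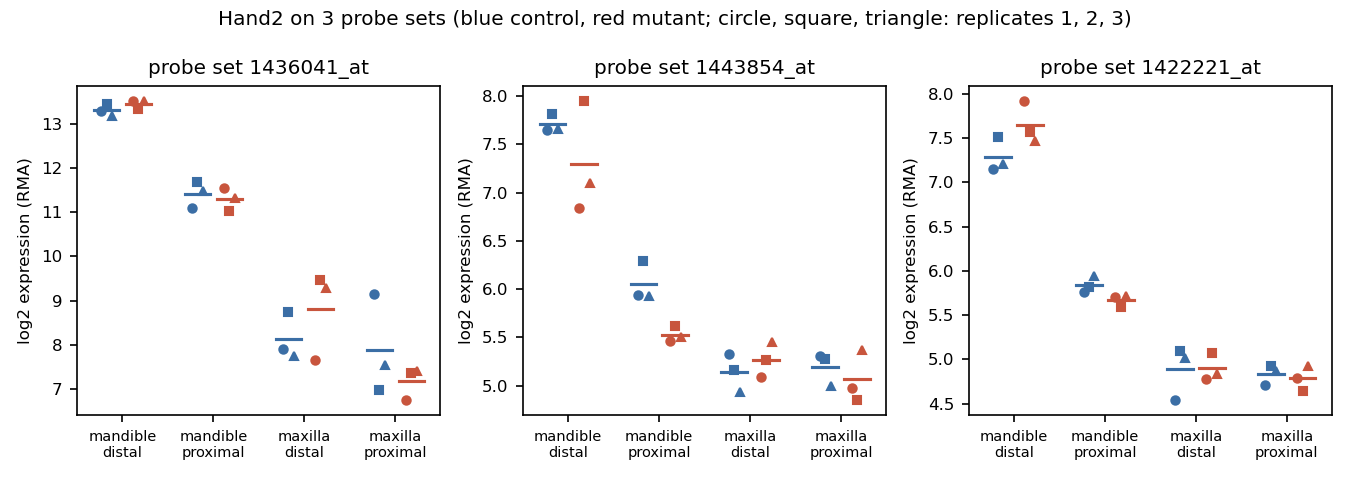
The 3 Hand2 probe sets by array (vertical axis, log2 expression; horizontal axis, jaw and end; blue control, red mutant; shapes are replicates, bars are group means). The brightest is highest in the distal mandible. The 2 dimmer ones exceed the 40th percentile only there, so their peak adds no support. They lie between 4.54 and 5.45 in the maxilla, where the brightest spreads between 6.76 and 9.47.

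Markers of other Hand2 tissues were checked beside these values. Of 4 heart genes, Myh6 and Nppa were below the 40th percentile on all 24 arrays and Nkx2-5 was above it on all 24, with group means from 6.58 to 7.02. Tnnt2, which embryonic skeletal muscle also transcribes, was above it on 23 arrays, with means of 6.85 in control and 8.05 in mutant distal mandible and 10.27 to 11.70 elsewhere. A sympathetic neuron list of 3 genes averaged 7.11 to 7.44 in control mandible and 7.53 to 8.06 in control maxilla. Of these, Th, the enzyme that starts catecholamine synthesis, was above it on 5 arrays, with group means of 7.82 in control and 6.94 in mutant proximal maxilla and 5.39 to 5.59 elsewhere. Gata3 and Dbh, the others, were above it on all 24 arrays. Gata3 was at 8.26 and 8.92 in control distal mandible and maxilla and at 7.54 and 7.34 in the proximal ones. The part of these tissues in the Hand2 values was not tested.

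Hand1, the partner of Hand2 at the arch tip, was much dimmer in its range. It read 7.33, 7.55 and 7.15 in control distal mandible, 6.78, 7.06 and 6.88 in proximal mandible, 6.89, 6.82 and 6.92 in distal maxilla and 6.70, 6.81 and 6.77 in proximal maxilla. Only the distal mandible stood above the other control groups, with no overlap. There the gene was higher than in distal maxilla by 0.46 ± 0.118 (adjusted p = 0.0158) and than in proximal mandible by 0.44 ± 0.118 (adjusted p = 0.0174). The first of these missed the call without control replicate 1 (0.48, adjusted p = 0.112) or 2 (0.33, adjusted p = 0.326). The second missed it without control replicate 1, 2 or 3 (0.38, 0.41 and 0.52, adjusted p = 0.223, 0.115 and 0.0575) and with both probe sets averaged (0.25, adjusted p = 0.0517).

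Mutant distal mandible gave 7.56, 7.18 and 7.29 for Hand1, again above mutant proximal mandible (6.95, 6.75 and 6.78), distal maxilla (6.63, 6.73 and 6.93) and proximal maxilla (6.64, 6.54 and 6.92). The differences were 0.58 ± 0.118 between the jaws at the distal end (adjusted p = 0.00633) and 0.52 ± 0.118 between the ends of the mandible (adjusted p = 0.00456). Without mutant replicate 1 the jaw difference was 0.40 and missed the call (adjusted p = 0.107). At the proximal end the jaws differed by 0.15 in controls and 0.13 in mutants (SE 0.118), neither called. The second Hand1 probe set was below the 40th percentile on every array.

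Gsc had its highest level in control proximal mandible. Its arrays read 9.21, 9.47 and 9.47 in control distal mandible and 9.77, 10.13 and 10.11 in control proximal mandible. In the control maxilla they read 8.04, 7.87 and 7.51 distally and 9.53, 8.16 and 9.03 proximally. In each control jaw every proximal array lay above every distal one, the reverse of the Hand2 order in the mandible. The distal minus proximal difference was -0.62 ± 0.365 in the mandible (adjusted p = 0.328) and -1.10 ± 0.365 in the maxilla (adjusted p = 0.0903). The maxillary value was called with the set as a random block (adjusted p = 0.0346) and without mutant replicate 1 (0.0241), and the mandibular value was not called under any alternative run.

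The jaw difference of Gsc was 1.58 ± 0.365 at the control distal end (2.98-fold, adjusted p = 0.00777) and 1.10 ± 0.365 at the proximal end (2.14-fold, adjusted p = 0.151). The distal call was lost without control replicate 2 (1.57, adjusted p = 0.068) and without control replicate 3 (1.38, adjusted p = 0.184), and the proximal value passed without mutant replicate 1 (adjusted p = 0.0426). Mandible and maxilla arrays did not overlap at either end.

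In mutants Gsc read 9.04, 9.08 and 8.79 in distal mandible, 9.54, 9.46 and 9.75 in proximal mandible, 8.64, 8.45 and 7.74 in distal maxilla and 9.11, 7.21 and 7.77 in proximal maxilla. Replicate 1 was the highest of the mutant maxilla arrays at both ends. Mandible exceeded maxilla by 1.55 ± 0.365 proximally (2.93-fold, adjusted p = 0.0135) and by 0.69 ± 0.365 distally (adjusted p = 0.421). The arrays of the jaws did not overlap at either end. The proximal call was lost without mutant replicate 2 (1.20, adjusted p = 0.127) and without mutant replicate 3 (1.34, adjusted p = 0.131), and was 2.11 without mutant replicate 1 (adjusted p = 0.00301). In the mutant maxilla the ends differed by 0.24 ± 0.365 (adjusted p = 0.867), with overlap, and the value turned to -0.25 without mutant replicate 2.

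Next the mutant and control arrays were compared, to see whether loss of the TGF-beta receptor went with a change in these genes. In limma 0 of 5 genes were called in distal mandible, proximal mandible, distal maxilla or proximal maxilla, or on average over the 4. Across all genes tested, 0.895%, 5.36%, 7.08% and 5.7% were called in those regions and 33.7% on average. At an unadjusted p under 0.05 the counts were 0, 0, 0 and 2 in the regions and 0 on average. Over all 13850 genes tested, 2086, 2708, 3120 and 2970 had such a p in the regions, in the same order, and 6056 on average. The average counts 12 arrays a genotype from 3 sets whose arrays deviated together, and with 1 value a set it called 80 genes in place of 4671 and again none of the 5.

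Hand2 differed between genotypes by 0.15 in distal mandible, -0.13 in proximal mandible, 0.67 in distal maxilla and -0.72 in proximal maxilla (SE 0.454 each), and by -0.01 ± 0.227 on average. The 95% interval of the average ran from -0.48 to 0.47. In the maxilla the arrays are spread more widely than in the mandible, and the genotypes overlapped at both ends. The distal minus proximal contrast of the maxillary genotype differences was 1.39 ± 0.642 (unadjusted p = 0.0432, adjusted p = 1). Without mutant replicate 1 the distal maxilla value was 1.24 (adjusted p = 0.118), and without control replicate 1 the contrast was 0.65.

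Among the genes followed, only Gsc had regions in which the arrays of the genotypes did not overlap. All control arrays lay above all mutant arrays in distal mandible (9.21 to 9.47 against 8.79 to 9.08) and in proximal mandible (9.77 to 10.13 against 9.46 to 9.75). The differences were -0.41 and -0.42 (SE 0.365) and did not pass (adjusted p = 0.647 and 0.59). How often the genotypes separated in this way over all genes tested was not counted. No genotype effect is therefore read from the separation. Standard deviations in these 4 mandible groups were 0.149 to 0.201, against 0.269 to 0.974 in the maxilla, and the fit shares 1 variance over all groups. In the maxilla Gsc differed by 0.47 distally and -0.87 proximally, with overlap, and on average by -0.31 ± 0.182 (adjusted p = 0.202). Leaving out mutant replicate 1 gave -0.49 on average (adjusted p = 0.0276) and -1.41 in proximal maxilla (adjusted p = 0.0265), both called. The maxillary contrast of the ends was 1.34 ± 0.516 (unadjusted p = 0.0177, adjusted p = 1).

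The largest regional genotype difference of Hand1 was -0.12, in distal maxilla, and its average was -0.06 ± 0.0592. Edn1 was higher in mutant proximal maxilla by 0.42 ± 0.167 (adjusted p = 0.149) and on average by 0.11 ± 0.0833 (adjusted p = 0.326). Mef2c differed by 0.04 ± 0.0769 on average (adjusted p = 0.692), and its regional differences ran from -0.18 to 0.19. Because RNA quality differed between the mutant sets, the comparison was repeated with mutant replicate 2 alone against the controls, the lone array being assumed to vary like the other groups. Averaged over its 4 arrays, Edn1 was at 7.62 in that set, against 7.24, 7.28 and 7.37 in the control sets and 7.27 and 7.33 in the other mutant sets. Edn1 was then higher by 0.68 in proximal maxilla, and Gsc was lower by 1.69 there (log2 -1.69). Of the 3 mutant proximal maxilla arrays, this one read the highest for Edn1 (7.69) and the lowest for Gsc (7.21). With 1 mutant array a region, no genotype effect is read from these values. The part of RNA quality in the values was not tested.

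Whether the genotype difference itself depended on jaw or end was tested in 4 contrasts, and in limma 0 of 5 members and 0 of 13850 genes passed in each (0% called). Those with an unadjusted p under 0.05 numbered 552 for ends of the mandible, 395 for ends of the maxilla, 421 for jaws at the distal end and 596 for jaws at the proximal end. The alternatives run gave at most 7, 8, 1 and 6 genes. Of the members, Hand2 and Gsc had an unadjusted p under 0.05 in the maxilla and none had in the other 3 contrasts.

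**Figure D4:**
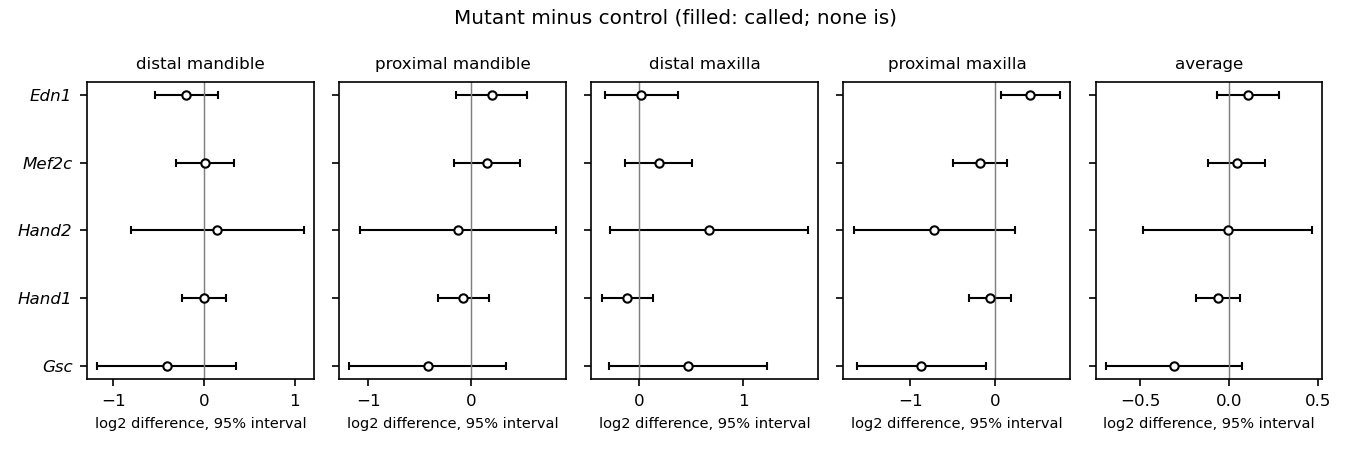
Mutant minus control log2 differences (horizontal axis, bars are 95% intervals) of the 5 genes in each region and on average; open points are not called, and the horizontal axes differ between panels. The Hand2 interval runs from -0.80 to 1.10 in distal mandible, and all intervals include 0 except those of Edn1 (0.42) and Gsc (-0.87) in proximal maxilla.

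Ordered by level, the groups separated only in part. For Hand2 the distal mandible groups of both genotypes (means 13.45 in mutant and 13.30 in control) overlapped each other, then came a gap of 1.88 to the proximal mandible groups (11.42 and 11.29), which overlapped, and a gap of 2.48 to the maxilla groups, where each neighbour overlapped the next. In Hand1 the gap was between the distal mandible groups (7.34 in both) and control proximal mandible (6.90), after which all neighbours overlapped. Gsc went from control proximal mandible (10.00) through mutant proximal mandible (9.58), control distal mandible (9.38) and mutant distal mandible (8.97) to the maxilla groups (8.90 to 7.80), which overlapped their neighbours. In Edn1 control distal maxilla (7.37) lay clear of control proximal mandible (7.18), its next in order, and in Mef2c every neighbouring pair overlapped.

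The genes whose levels ran most like those of Hand2 and Gsc were picked by Pearson's r over the 24 arrays, as a description. The arrays share 6 sets and 4 regions, so the points are not independent. For Hand2 they were Mmp9, a secreted matrix protease (r = 0.92), Aldh1b1, an aldehyde dehydrogenase (0.92), Fam167a (0.91), Lhx9, a LIM-homeobox factor (0.90), and Wif1, a secreted WNT inhibitor (0.90). For Gsc they were Pitx1, a homeobox gene of the lower jaw (r = 0.84), P4ha2, a collagen prolyl hydroxylase subunit (0.83), Tspan8 (0.83), Ppfibp2 (0.81) and Pdk3 (0.81).

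The wider pathway was read from a list of 61 genes by role, of which 53 were tested. Without the members 48 were, and in control distal jaws 10 of them were higher in the mandible and 10 lower, against 3.51% and 5.7% of all genes tested. Their median difference was -0.02, and that of all genes -0.0043. The largest rises were Msx2, a homeobox factor of the distal arch (2.04 ± 0.343), Hey2, a Notch-responsive repressor (1.86 ± 0.253), Bmp4, a bone morphogenetic ligand (1.60 ± 0.198), and Pitx1 (1.49 ± 0.369). Hey2 had been listed among the maxillary genes held down in the mandible by this pathway, but was higher there. The largest falls were Barx1, a homeobox gene of proximal arch and molar mesenchyme (-3.25 ± 0.236), Nr2f1, a nuclear receptor of the upper jaw (-2.52 ± 0.2), Cited1, a co-regulator (-2.04), and Dlx1 (-1.54). At the proximal end 0 of 48 were higher and 2 lower, Cited1 (-0.72) and Pou3f3, a maxillary POU factor (-0.58), against 0.968% and 1.65% of all genes.

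The list was also read by role between the control distal jaws, where 9.21% of all genes tested were called, 3.51% as higher. These counts were picked out after their values were seen, and with 6 to 8 genes a role nothing is read from them. Among 6 ligand and processing genes 1 differed there, Edn3 (-0.72, adjusted p = 0.00402), and among 6 receptor and transducer genes 1 did, Plcb1, which was lower in the mandible. Of the 8 genes for MEF2 factors and their repressors 1 was higher, Hdac4 (0.62 ± 0.139), and 1 lower, Hdac9 (-0.74 ± 0.14). Of the 6 DLX genes Dlx3 was higher and Dlx1 lower. Dlx5 and Dlx6, the usual step between endothelin and Hand2, differed between the jaws by -0.21 ± 0.185 and -0.08 ± 0.228 (adjusted p = 0.71 and 0.965). Of the 7 HAND and bHLH partner genes 4 were higher in the mandible, 2 of them the members Hand2 and Hand1 and the others Tcf4 and Twist1. Likewise 4 of 7 distal mandibular genes were, Msx2, Bmp4, Pitx1 and Alx4. Counts for the proximal and the maxillary role are not given here. Of the maxillary genes, Nr2f1 was lower in the mandible and Hey2 higher, as given above.

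Within the control mandible, 12 of the 48 were higher distally and 11 lower, against 6.24% and 7.08% of all genes tested (median 0.01, against 0.00039). Hey2 (2.33 ± 0.253), Bmp4 (1.36 ± 0.198), Msx2 (1.28 ± 0.343) and Edn2, a second endothelin ligand (1.22 ± 0.291), were the largest rises. Falls were led by Barx1 (-3.24 ± 0.236), Nr2f1 (-2.34), Rgs5, a pericyte regulator of G-protein signalling (-1.78), and Dlx1 (-1.57). Dlx5 (-0.98 ± 0.185, adjusted p = 0.00122) and Dlx6 (-1.39 ± 0.228, adjusted p = 0.000306) were lower at the distal end, where Hand2 was higher. Ece1, the enzyme that releases active endothelin, was higher distally by 0.45 ± 0.101 (adjusted p = 0.00502).

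**Figure D5:**
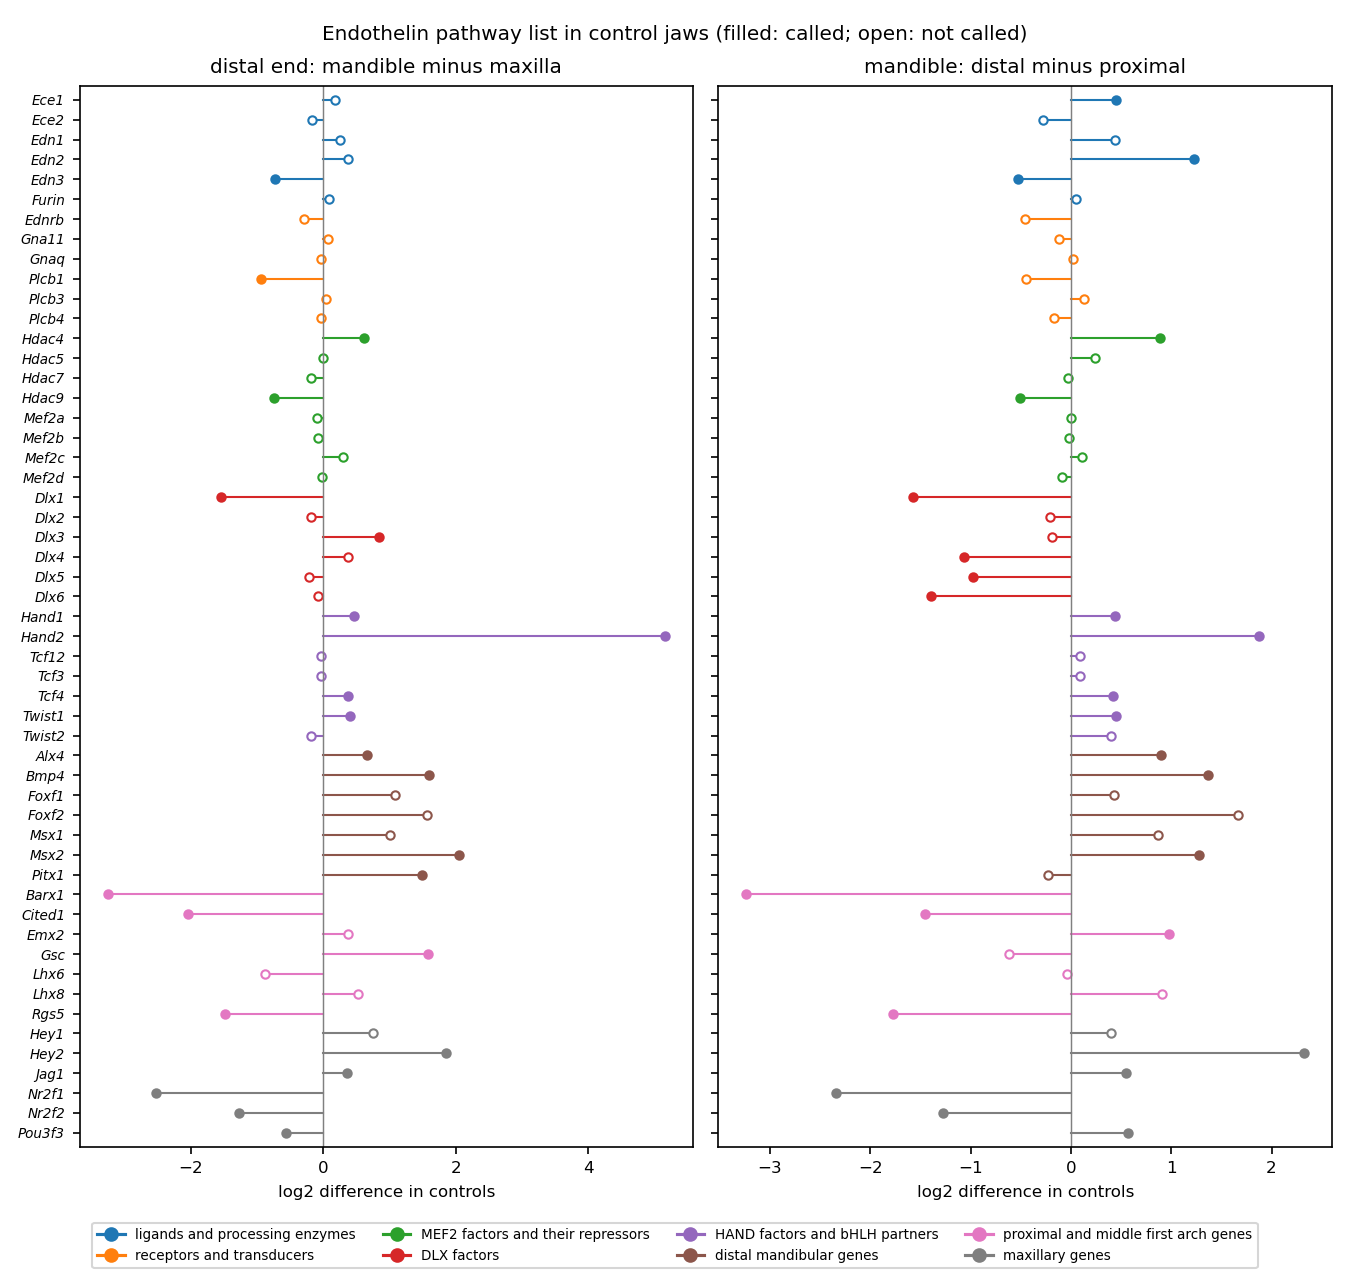
Log2 differences (horizontal axis) of the tested pathway genes in control jaws, mandible minus maxilla at the distal end (left) and distal minus proximal in the mandible (right), coloured by role and filled where called. Hand2 has the largest rise in the left panel (5.16) and Barx1 the largest fall in both (-3.25 and -3.24).

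In the control maxilla 4 of the 48 were higher distally, Edn2 (1.45), Twist2 (0.97), Hey2 (0.89) and Pou3f3 (0.55), and 3 were lower, Msx2 (-1.90), Dlx6 (-1.49) and Dlx5 (-0.96). Over all genes tested 3.37% and 2.69% were, and the medians were 0.01 in both. Between genotypes, 14 of the 48 were higher in mutants on average and 3 lower, with 18.3% and 15.5% over all genes tested and medians of 0.09 and 0.02. With 1 value a set, 0 of the 48 were higher and 1 lower in limma (Cited1, adjusted p = 0.0281), and 13 had an unadjusted p under 0.05. How many of all genes had such a p with 1 value a set was not counted. With the set as a random block 1 was higher (Furin) and 2 lower (Cited1 and Ece2). Of those higher when arrays were counted singly, the largest were Rgs5 (0.51 ± 0.167), Nr2f1 (0.38 ± 0.0999), Hdac9, a MEF2 co-repressor (0.32 ± 0.07), and Emx2 (0.29 ± 0.0849). The lower ones were Cited1 (-0.91 ± 0.0809), Ece2, a relative of Ece1 (-0.24 ± 0.0471), and Gna11, a Gq-family subunit (-0.12 ± 0.0315).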

How the data were processed

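Expression was measured in 24 samples on Affymetrix mouse arrays. RNeasy-purified total RNA (5 µg a sample) was turned into biotin-labelled cRNA, per the labels' protocols. The deposited values are log2 expression, per their range, and the authors made them with RMA (submitters' processing notes). The sources used here name no RMA version and no set of arrays normalized together. Of 45101 probe sets, 34958 carry a single symbol, 932 several and 9211 none, and genes were named from the platform annotation.

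For each gene the brightest probe set by its mean was used. Genes had to exceed an array's 40th percentile on 3 or more arrays, and 13850 did. limma 3.58.1 in R 4.3.3 was fitted with 1 coefficient a group on all 24 arrays (16 residual degrees of freedom, eBayes defaults). A call means a Benjamini-Hochberg adjusted p below 0.05, and errors are standard errors from the moderated variance unless marked otherwise. The 24 arrays limit the precision. The fit was tested on simulated data with known changes. Whether the arrays of groups overlapped was not counted over all genes tested. The comparisons were the jaws and ends within each genotype, the genotypes in each region and on average, and differences of these.

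Within a genotype, same-numbered arrays deviated together (correlations 0 to 0.70, median 0.315, over 0.1 in 34 of 36). All 3 pairs were over 0.1 in the comparisons of jaws and ends except the control proximal jaws. The numbers thus seemed to pair the arrays there, on the basis of the values alone. The main fit left this pairing out, and its p-values are unpaired. Only the alternatives with the set as a block used it, and they were run for the control proximal jaws as well. The random block used statmod 1.5.0 (correlation 0.40).

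Genes named are the members, the 5 genes most correlated with each member whose group means span at least 1 log2 unit, and up to 4 of the largest called differences each way from the pathway list in each control comparison and the average genotype effect. Dlx5, Dlx6, Ece1, Edn3, Furin, Hdac4 and the counts by role were named after their values were seen. Members and lists were chosen with earlier results of these data known. Upstream sequences came from RefSeq (GRCm38.p6). Alternatives were the mean of all probe sets, no filter or a 60th percentile filter, renewed quantile normalization, trended robust variance, the set as a block, 1 value a set and leaving out each replicate. Fitting each probe set by itself and leaving out both mutant sets with a raised Gapdh difference were added after seeing the data, as was 1 value a set for the pathway list and the Mef2c probe sets.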

Additional observations from a re-analysis of the deposited data

How the results depend on the processing

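Of the calls of single members, 149 of the outcomes under alternatives kept their call and 16 lost it, and no called value changed sign. Outcomes for members not called kept their state in 772 cases, gained a call in 13 and turned sign in 30. The numbers of members called that changed were as follows, and the cause was not tested except where fewer samples or genes is the alternative itself. With the mean of all probe sets, 1 was called between control mandibular ends, 0 between mutant maxillary ends and 1 in the jaw by end difference of either genotype (Hand2, whose 2 dimmer probe sets exceed the filter in distal mandible alone). With the stricter filter, which removes Hand1, 1 was called between control mandibular ends, 1 between mutant distal jaws and 1 between mutant mandibular ends.

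The replicate block changed few calls. With the set as a random block 1 member (Gsc) was called between control maxillary ends and 0 with the set as a fixed block, and Edn1 joined the calls between control mandibular ends with both, making 3. The pairing changed no other call of a member.

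Leaving out a replicate gave 1 to 3 members called between control distal jaws, 1 to 2 between control proximal jaws, 0 to 3 between control mandibular ends, 0 to 1 between control maxillary ends, 1 to 2 between mutant distal jaws and between mutant proximal jaws, 0 to 1 between mutant maxillary ends, 0 to 1 between genotypes in proximal maxilla and 0 to 1 on average. Leaving out both mutant sets with a raised Gapdh difference left 1 mutant array a region, all 4 from 1 set and not independent. The members called there are therefore not counted.

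Signs turned only for members not called, when a replicate was left out. For Edn1 the ranges were -0.0149 to 0.37 between control proximal jaws, -0.10 to 0.18 between mutant distal jaws, -0.23 to 0.0641 between mutant proximal jaws, -0.17 to 0.17 between mutant maxillary ends and -0.18 to 0.20 between genotypes in distal maxilla. Those of Mef2c were -0.12 to 0.14 between control proximal jaws, -0.24 to 0.00617 between control maxillary ends, -0.035 to 0.30 between mutant distal jaws, -0.0709 to 0.00129 between mutant mandibular ends and -0.0325 to 0.0436 between genotypes in distal mandible. Hand2 gave -0.52 to 0.98 between control maxillary ends, -0.29 to 0.00657 between genotypes in proximal mandible, -0.11 to 0.15 on average and -0.20 to 1.18 for genotype by jaw at the proximal end. Hand1 gave -0.11 to 0.10 between genotypes in distal mandible and -0.17 to 0.0196 in proximal maxilla, and Gsc -0.25 to 0.60 between mutant maxillary ends and -0.11 to 0.18 for genotype by end in the mandible. Without both mutant sets with a raised Gapdh difference, Hand1 was at -0.16 and Mef2c at -0.0113 in distal mandible and Hand2 at 0.11 on average.

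Counts over all genes moved more. Calls between control distal jaws ran from 498 (without control replicate 3) to 2037 (random block) against 1275, between control proximal jaws from 28 to 769 against 362, between control mandibular ends from 784 to 3298 against 1844 and between control maxillary ends from 217 to 1707 against 839. In mutants they ran from 189 to 1346 against 681 (distal jaws), 519 to 1783 against 788 (proximal jaws), 1363 to 3943 against 2202 (mandibular ends) and 319 to 1601 against 713 (maxillary ends). For jaw by end they ran from 11 to 960 against 378 in controls and 17 to 531 against 183 in mutants. Between genotypes they ran from 2 to 2912 against 124 (distal mandible), 60 to 1826 against 742 (proximal mandible), 58 to 3414 against 980 (distal maxilla), 84 to 2617 against 789 (proximal maxilla) and 80 to 6971 against 4671 (average). The number of arrays, 3 a group, limits the precision.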
